A study of Homo sapiens with 9 samples.

Results

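The distal stretch of chromosome 17, at the end of band 17q25, was described as 351 p300 peaks out of 19861 in 5 peak lists. Its members are all peaks on hg19 chromosome 17 with a midpoint at 75 Mb or beyond. The last peak of any list ended at 81.1 Mb, so the stretch spans 6.15 Mb. It was chosen by its high density of peaks in these same lists. Its density against the rest of chromosome 17 is therefore given as a description and was not tested.

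p300 is a histone acetyltransferase and transcriptional coactivator. It is recruited by transcription factors rather than by a DNA motif of its own, and it acetylates histones at enhancers and promoters. The end of the long arm of chromosome 17 is known as gene-rich. Genes known to lie in 17q25 include FASN, the enzyme of fatty acid synthesis, BIRC5, which encodes the apoptosis inhibitor survivin, and SOCS3, an inhibitor of cytokine signalling. No peak was assigned to a gene here, because no annotation of hg19 was used, and no sequence of the stretch was used.

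The libraries came from PC3, an established human cell line grown from a prostate cancer metastasis. The treated group (3 libraries) received 30 µM MnTE-2-PyP, for 24 h. The drug, labelled T2E, is a manganese porphyrin with superoxide dismutase activity. The untreated group (2 libraries) received no drug. Both groups were then given 20 Gy of radiation and were fixed 1 h later, so no group without radiation was compared. The series describes the libraries as biological replicates of one cell line. The 4 input libraries had no processed values used here.

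The treated lists numbered 1, 2 and 3 held 4922, 10059 and 528 peaks, and the untreated lists 1 and 2 held 2313 and 2039. Read depth behind the peaks is unknown, since the lists give no read counts. A number of peaks therefore measures binding and library yield together. Treated list 3 stood apart: it had 11 peaks on all of chromosome 17 and 0 in the stretch. Every value on width, score rank or sharing within the stretch thus rests on 4 lists, 2 per group. Peak names carry identifiers, shared by treated list 1 and untreated list 1, and by treated list 3 and untreated list 2. The labels do not say what these identifiers mark. For some measures the values of such pairs are printed after the pooled value, and their sign can differ from it.

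Peaks were several times denser in the stretch than along the rest of chromosome 17 in 4 of the 5 lists, with and without MnTE-2-PyP. The stretch held 82, 199 and 0 peaks in treated lists 1, 2 and 3, against 31 and 39 in the untreated lists. This was 13.3 and 32.4 peaks per Mb in treated lists 1 and 2, against 3.74 and 5.73 in the rest of the chromosome. Untreated lists 1 and 2 had 5.04 and 6.34 peaks per Mb in the stretch and 1.59 and 1.29 in the rest. The stretch was thus 3.57-fold and 5.65-fold denser in treated lists 1 and 2, and 3.18-fold and 4.90-fold denser in untreated lists 1 and 2. It covers 7.58% of the span of chromosome 17 and held 27.3% of its peaks over all lists. Peaks just outside the border were about as dense as those just inside: between 75 and 76 Mb the 4 lists held 17 and 12 treated and 5 and 6 untreated peaks, and between 74 and 75 Mb 12 and 12 treated and 8 and 7 untreated peaks. The border at 75 Mb therefore follows no step in the data.

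**Figure D1:**
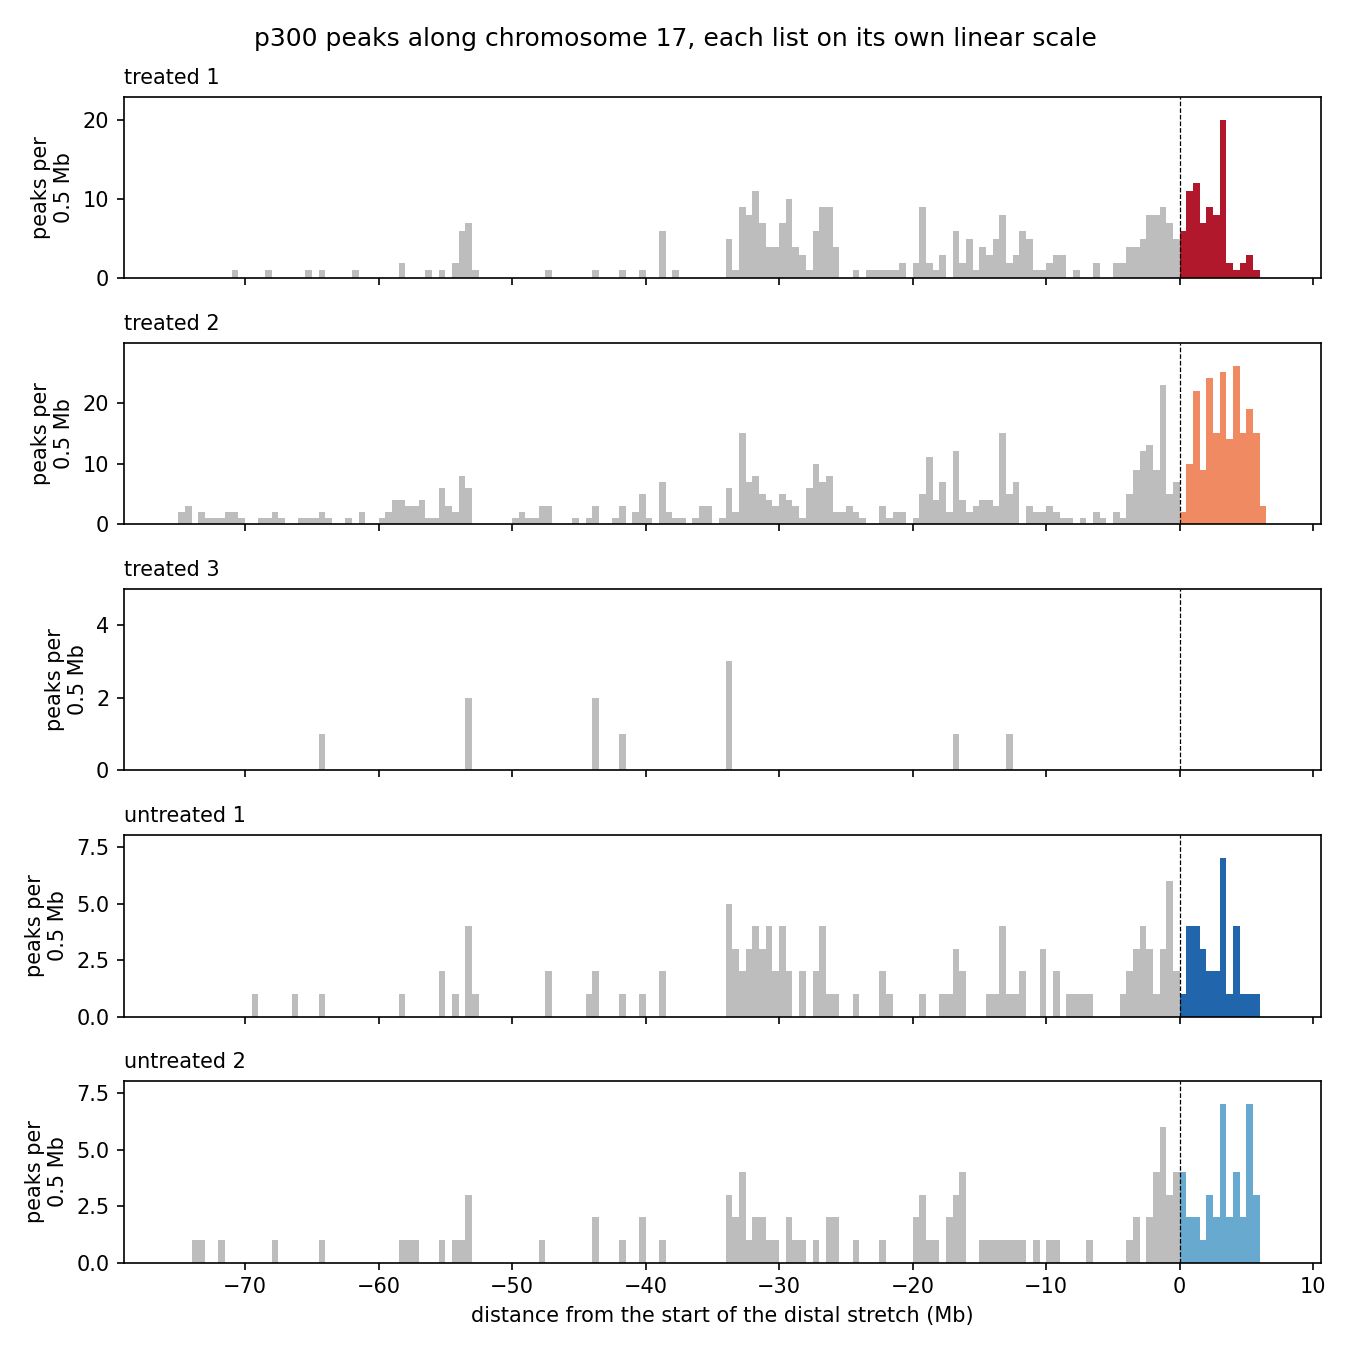
Number of p300 peaks per 0.5 Mb bin (y axis, linear, own scale per panel) against distance from the start of the distal stretch in Mb (x axis), 1 panel per list. Coloured bars are bins of the stretch and grey bars the rest of chromosome 17; the tallest coloured bars reach 20 and 26 peaks in treated lists 1 and 2 and 7 in each untreated list, and treated list 3 has none.

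The share of a list that fell in the stretch was close among the 4 lists with peaks there. It was 1.67% (95% Wilson interval 1.34 to 2.06%) and 1.98% (1.72 to 2.27%) in treated lists 1 and 2, and 1.34% (0.946 to 1.90%) and 1.91% (1.40 to 2.60%) in untreated lists 1 and 2. Treated list 3 had 0 of 528 peaks, with a 95% Wilson interval of 0 to 0.722%. These intervals cover counting error only. The groups averaged 1.21 ± 1.06% treated (SD, n = 3) and 1.63 ± 0.405% untreated (SD, n = 2). Their difference of -0.412 points was smaller than the SD among treated lists. The log2 ratio of the means was -0.42 (exact two-sided permutation p = 0.9, where the smallest p this design allows is 0.1). Treated list 3 set that direction, and the log2 ratio was 0.16 without it (exact permutation p = 0.667). Within the pairs with one identifier, treated list 1 was above untreated list 1 by 0.326 points, and treated list 3 was below untreated list 2, with a difference of -1.91 points. As a share of the peaks on chromosome 17, the stretch held 22.7%, 31.7% and 0% in the treated lists against 20.7% and 28.7% in the untreated lists. The difference was -6.56 points (exact permutation p = 0.9), and 2.50 points without treated list 3 (exact permutation p = 0.667). The shares of a list and of chromosome 17 are built from the peak counts by which the stretch was chosen. Their tests therefore cannot decide whether the groups differ. Beside the 0 of treated list 3 stand its 0 peaks between 70 and 75 Mb, where treated lists 1 and 2 had 54 and 86 and the untreated lists 25 and 22.

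Peaks of the stretch were not evenly spaced. Of the 163 bins of 0.5 Mb on chromosome 17, 13 lie in the stretch, and 10 of these were among the 21 bins that ranked 20th or higher by merged regions, ties included. A merged region is a set of peaks of any lists that overlap by at least 1 bp. The bin from 78 to 78.5 Mb held the most regions of the chromosome, 54, with 20 and 25 peaks in treated lists 1 and 2 and 7 and 7 in the untreated lists. No chromosome 17 bin held more peaks in treated list 1 or in either untreated list, and the bin from 80 to 80.5 Mb held as many, 7, in untreated list 2. Within it, peaks lay in every step of 0.1 Mb in treated lists 1 and 2, at 3 to 5 and 4 to 6 per step. The bin is thus not 1 local cluster in these lists. Both untreated lists had 0 peaks in the steps from 78 to 78.1 Mb and from 78.3 to 78.4 Mb, and 2 or 3 in each other step. The next bins of the stretch were 76 to 76.5 Mb with 38 regions and 77 to 77.5 Mb with 37, while the bin from 73.5 to 74 Mb, outside the stretch, held 40. The last bin of the stretch, from 81 Mb, held 3 regions, all from treated list 2, and is cut short by the end of the peaks.

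No bin of the stretch separated the groups. Of the 12 bins with a peak in at least 2 lists, 0 had shares of the list in which every treated list was higher or every treated list was lower than both untreated lists. Over the genome, 1.38% of 2022 such bins were higher and 9.35% were lower in all treated lists. Because treated list 3 is at 0 throughout the stretch, no bin could be higher in all treated lists. Without treated list 3, treated lists 1 and 2 were both higher in 3 of 12 bins, those starting at 76, 77 and 77.5 Mb, and both lower in 0. The share of all bins higher in this setting was 24.0%, and the share lower was 13.5%.

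The lists did differ in where along the stretch their peaks lay. The split at 78.5 Mb, the end of the densest bin, was chosen after seeing the data, so the values are a description. Beyond it lay 9 of 82 peaks (11.0%, 95% Wilson interval 5.88 to 19.6%) in treated list 1 and 92 of 199 (46.2%, 39.4 to 53.2%) in treated list 2. In the untreated lists it was 8 of 31 (25.8%, 13.7 to 43.2%) in list 1 and 18 of 39 (46.2%, 31.6 to 61.4%) in list 2. The 2 lists numbered 1, which share an identifier, had the lower shares, and the 2 lists numbered 2, which do not, had the higher ones. Each of these pairs holds 1 treated and 1 untreated list. Beyond 80 Mb lay 4.88% and 18.6% of the stretch peaks of treated lists 1 and 2, and 6.45% and 25.6% of those of untreated lists 1 and 2. Counts per bin had a Pearson correlation of 0.82 between treated list 1 and untreated list 1 over the 13 bins, against 0.34 to 0.56 for the other 5 pairs of lists. Bins share the libraries and their yield, so this is a description only.

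**Figure D2:**
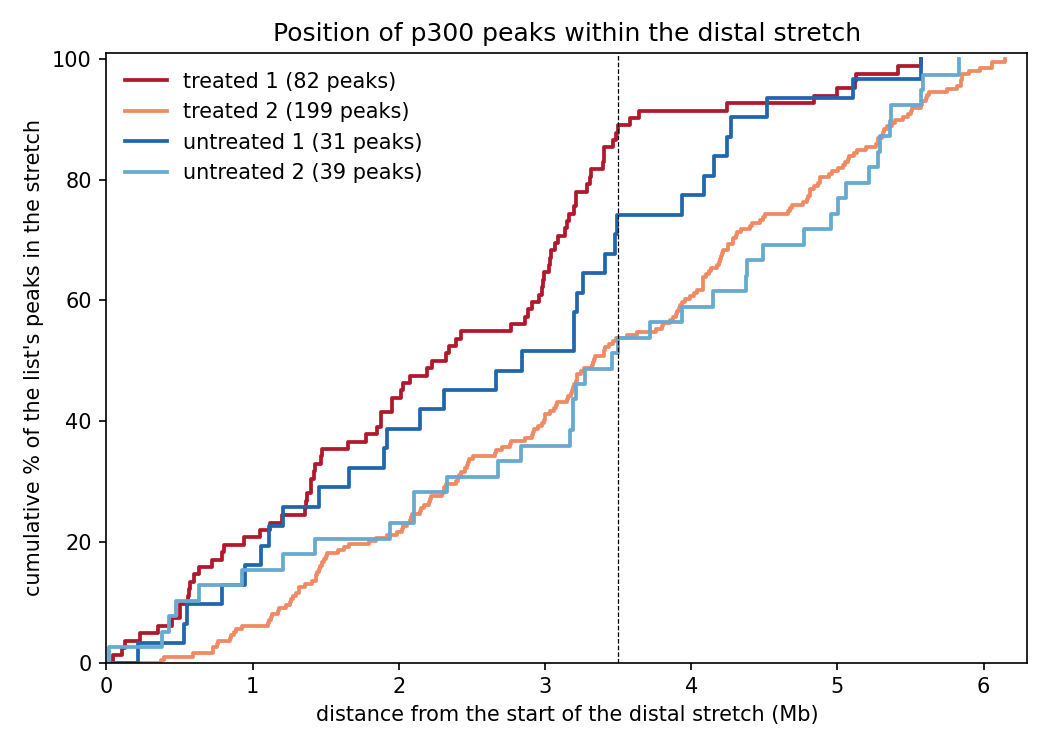
Cumulative percentage of each list's stretch peaks (y axis) against distance from the start of the stretch in Mb (x axis), 1 line per list with peaks there; the dashed line is the end of the densest bin. Treated list 1 and untreated list 1 have reached 89.0% and 74.2% at the dashed line, and treated list 2 and untreated list 2 have reached 53.8% each.

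The peaks that make the stretch dense were mostly of low to middling score within their lists. The deposited score is the authors' own value per peak and was used only for ranks within a list, where 100 is the strongest peak. The median percentile in the stretch was 35.0 and 47.0 in treated lists 1 and 2, against 44.7 and 47.0 in the rest of chromosome 17. In untreated lists 1 and 2 it was 20.6 and 34.6 in the stretch and 40.3 and 51.1 in the rest. The stretch ranked lower in 3 lists and level in treated list 2, where both medians fell on a score shared by 719 peaks (7.15% of that list). By mean percentile, an alternative chosen after seeing the data, the stretch was lower in all 4 lists: 40.6 against 46.7 and 45.1 against 47.5 in treated lists 1 and 2, and 29.5 against 42.8 and 38.4 against 48.6 in untreated lists 1 and 2. The mean difference of the medians was -11.5 ± 8.71 points (SD, n = 4), with an exact two-sided sign-flip permutation p = 0.25. With 4 lists the test can reach 0.125. The difference of 0 in treated list 2 has no sign to flip, so 0.25 is the smallest p that these values can give.

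Strong peaks were few. Of the stretch peaks, 1 of 82 and 7 of 199 in treated lists 1 and 2, and 0 of 31 and 0 of 39 in untreated lists 1 and 2, lay above the 90th percentile of their list. In the rest of chromosome 17 this was the case for 5.71% and 6.29% of peaks in treated lists 1 and 2 and 5.88% and 8.25% in untreated lists 1 and 2. In untreated list 1, 18 of the 31 stretch peaks (58.1%) lay at or below the 25th percentile of the list and 0 lay above the 75th. When each list was limited to its 528 top-scoring peaks, the length of the shortest list, the stretch held 1, 2 and 0 peaks in the treated lists and 0 and 4 in the untreated lists. These 7 were 7.87% of the 89 peaks left on chromosome 17, beside the 7.58% of the span that the stretch covers. The mean density ratio over the 5 lists was 0.978 in this setting and 3.46 with all peaks. Each ratio used the first and last chromosome 17 peak of its own setting, so the spans differ. The 0.978 averages unlike lists with few peaks. The stretch held 1 of 19, 2 of 17 and 0 of 11 chromosome 17 peaks in the treated lists, and 0 of 16 and 4 of 26 in the untreated lists. At this equal length untreated list 1 had 0 stretch peaks as well as treated list 3.

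The deficit in rank against the rest of the chromosome was smaller in the treated lists, at -9.77 and 0 points, than in the untreated lists, at -19.7 and -16.5 points. The groups did not overlap, with means of -4.89 ± 6.91 and -18.1 ± 2.27 points (SD, n = 2 each), and the difference of 13.2 points reached the smallest p that 4 lists allow (exact two-sided permutation p = 0.333). By mean percentile, which the tied score of treated list 2 affects less, the difference was 7.51 points (exact permutation p = 0.333, chosen after seeing the data). In the pair with one identifier, treated list 1 minus untreated list 1, the difference of the medians was 9.94 points. A comparison of 2 lists with 2 cannot give a p under the threshold of 0.05.

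**Figure D3:**
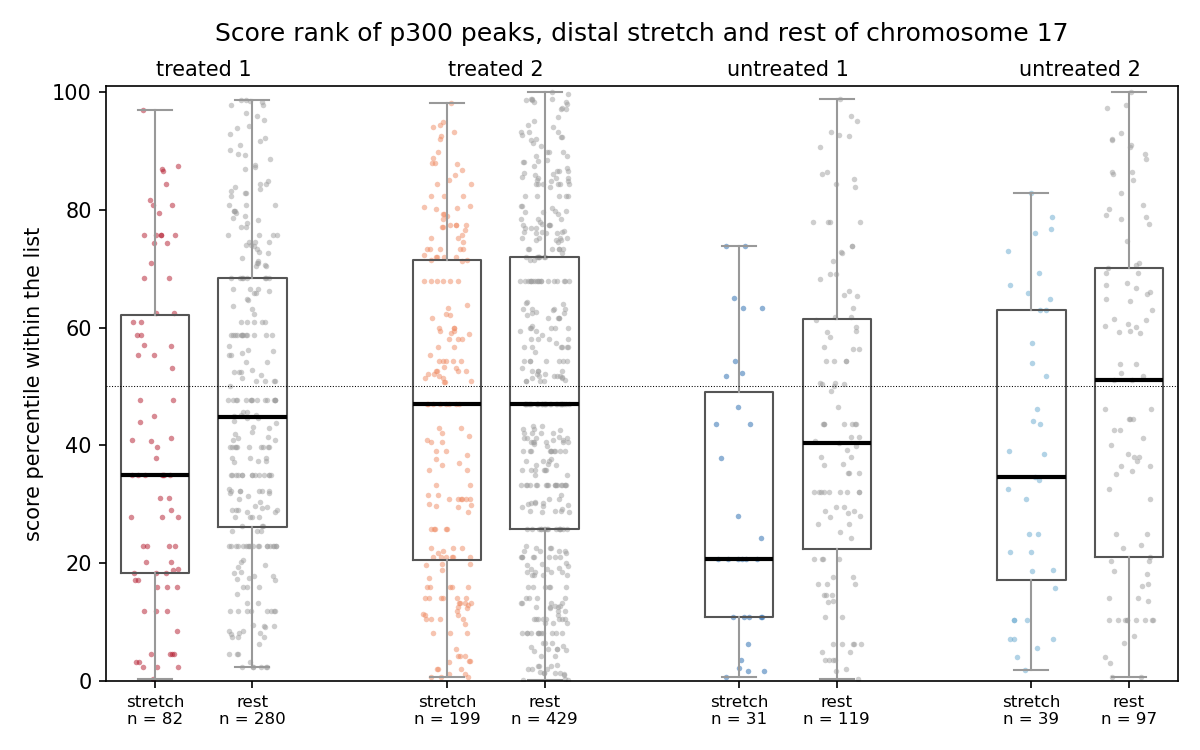
Score percentile within its list (y axis, 100 is the strongest) of every peak in the stretch (coloured) and in the rest of chromosome 17 (grey), by list; boxes span the quartiles, thick lines are medians and whiskers reach the lowest and highest value. Stretch medians are 35.0 and 47.0 in treated lists 1 and 2 and 20.6 and 34.6 in untreated lists 1 and 2 and lie below the median of the rest in every list but treated list 2, where both stand at 47.0.

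Nearly all peaks of the stretch were private to one list. The 351 peaks merged into 338 regions, of which 10 (2.96%) were in 2 or more lists. Over the whole series 10.4% of regions were in 2 or more lists, and in the rest of chromosome 17 it was 66 of 830 (7.95%). Treated list 2 alone held 192 of the regions, treated list 1 alone 74, untreated list 2 alone 35 and untreated list 1 alone 27. Leaving treated list 3 out of the count gave the same 10 regions in the stretch and 65 (7.83%) in the rest.

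By list, 8 of 82 stretch peaks (9.76%, 95% Wilson interval 5.03 to 18.1%) in treated list 1 and 7 of 199 (3.52%, 1.71 to 7.08%) in treated list 2 overlapped a peak of another list. In the untreated lists it was 4 of 31 (12.9%, 5.13 to 28.9%) in list 1 and 4 of 39 (10.3%, 4.06 to 23.6%) in list 2. The share in the rest of chromosome 17 was higher in each of the 4 lists, at 18.2% and 11.9% in treated lists 1 and 2 and 27.7% and 27.8% in untreated lists 1 and 2. The mean difference was -12.3 ± 4.64 points (SD, n = 4), and the exact two-sided sign-flip permutation test gave p = 0.125, the smallest it can give with 4 lists. Score rank was also lower in the stretch in 3 of the 4 lists, and its part in this result was not tested. Sharing was lower in the stretch in all 4 lists among peaks up to the 50th percentile of their list, with a mean difference of -8.52 points, and among peaks above it, with -13.4 points (exact sign-flip permutation p = 0.125 each, alternatives chosen after seeing the data). Untreated lists 1 and 2 have 8 and 14 stretch peaks above the 50th percentile. Peaks of stretch and rest were not matched by rank within these parts, so the split does not test the part of score rank.

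**Figure D4:**
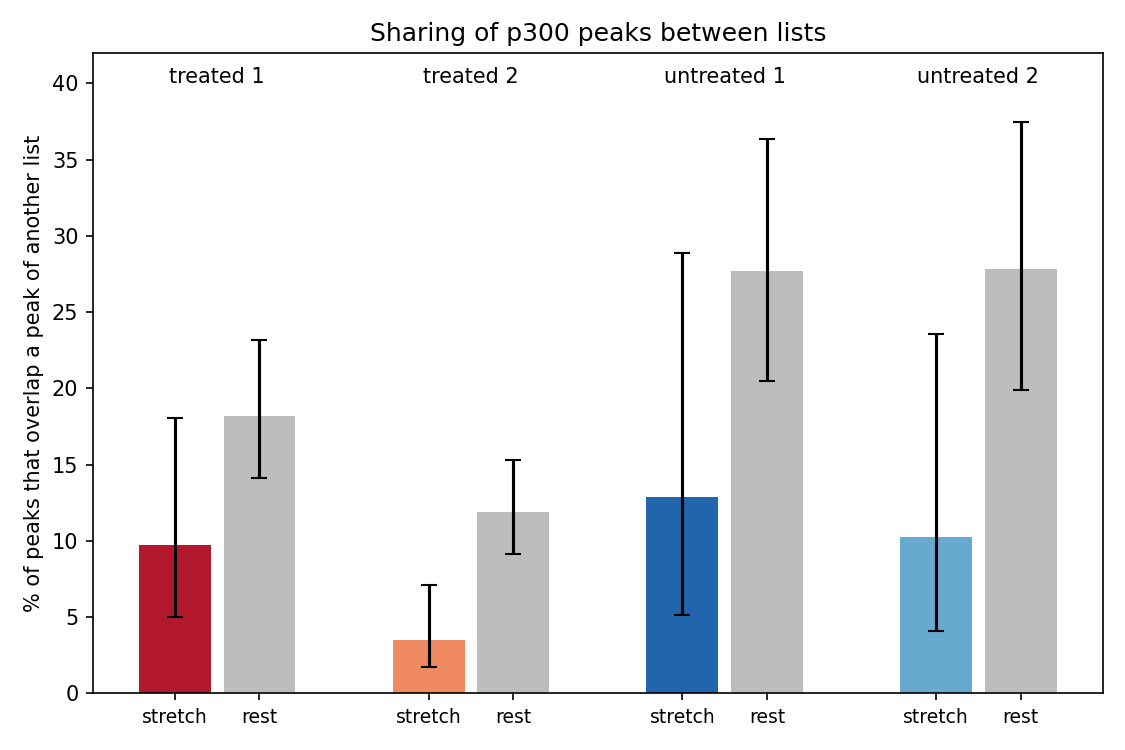
Percentage of peaks that overlap a peak of any other list by at least 1 bp (y axis), in the stretch (coloured) and in the rest of chromosome 17 (grey), by list; error bars are 95% Wilson intervals. The coloured bar is below the grey bar in each of the 4 lists.

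Overlap in the stretch was low both within and between the groups. Treated lists 1 and 2 overlapped at 7.32% of the shorter list and untreated lists 1 and 2 at 6.45%, while the 4 treated and untreated pairs overlapped at 2.56% to 9.68%. The mean was 6.88% over same-group pairs and 5.79% over between-group pairs. They differed by 1.09 points (exact one-sided permutation p = 0.667, where the smallest possible is 0.333). The highest, at 3 of 31 peaks, was treated list 1 with untreated list 1, which share an identifier. The difference in sharing between stretch and rest was -8.46 and -8.37 points in treated lists 1 and 2 and -14.8 and -17.6 points in untreated lists 1 and 2, a difference between the groups of 7.79 points (exact two-sided permutation p = 0.333, the smallest 4 lists allow). It was 6.37 points in the pair with one identifier. These points are taken from unequal shares in the rest of chromosome 17. Those were 18.2% and 11.9% in treated lists 1 and 2 and 27.7% and 27.8% in untreated lists 1 and 2. The part of this unequal baseline in the difference between the groups was not tested.

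Of the 338 regions, 5 (1.48%) were in 2 treated and no untreated list, where the share over the whole series was 2.93%, and 1 (0.296%) was in both untreated and no treated list, where it was 0.186%. The 4 others shared were in both groups. No region of the stretch was in all 5 lists.

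One region was held by 4 lists, at 17:80574114-80574534, 421 bp wide. Its scores were 29.3 and 21.1 in treated lists 1 and 2 and 9.73 and 6.03 in untreated lists 1 and 2. It was the strongest stretch peak of treated lists 1 and 2, at percentiles 97.0 and 98.2, and stood at percentiles 65.1 and 64.9 in the untreated lists. It was also the last peak of the chromosome in treated list 1 and in untreated list 1. The treated percentiles were both above the untreated ones, and this single region was not tested.

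The 5 regions in treated lists 1 and 2 alone were led by 17:79841539-79841842, with scores of 13.3 and 6.66 (percentiles 86.6 and 78.5). The next was 17:78210470-78211030, with scores of 12.2 and 4.28 (percentiles 84.5 and 31.6). The third, 17:78467473-78468072, had 5.09 and 6.08. The remaining ones, 17:76475573-76476133 and 17:77390280-77390712, were among the weakest peaks of treated list 1, at percentiles 3.10 and 2.33, and of middling rank in treated list 2, at 54.3 and 53.2. The region in the untreated lists alone was 17:76207357-76207934, with scores of 7.44 and 6.48 (percentiles 43.5 and 69.3). Of these 6 regions, the first alone ranked above the 75th percentile of every list that held it.

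The regions shared by 1 treated and 1 untreated list included a pair of neighbours in the densest bin. The first, 17:78191648-78192780, was 1133 bp wide and joined 1 peak of treated list 2 (score 6.08) to 2 peaks of untreated list 2. It holds the widest stretch peak of treated list 2, at 903 bp. The second, 17:78198963-78199506, was in treated list 1 (score 5.75) and untreated list 1 (score 11.8), where it was the widest stretch peak and tied for the highest score. The third such region, 17:79243264-79243560, was in the same 2 lists with scores of 6.32 and 11.8, the tied highest score of untreated list 1 in the stretch. The highest-scoring stretch peak of untreated list 2, 17:79375239-79375623 with a score of 8.06, was in no other list.

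Distances between peaks of different lists are given as a description only. They shorten as peaks become denser, and the stretch was chosen by its density. No distance expected from density was computed. The median distance from a stretch peak to the nearest peak of another list was 5.98 and 14.6 kb in treated lists 1 and 2 and 3.13 and 6.69 kb in untreated lists 1 and 2. In the rest of chromosome 17 it was 12.1 and 18.7 kb in treated lists 1 and 2 and 5.12 and 5.21 kb in untreated lists 1 and 2. The share of peaks with a peak of another list within 1 kb was lower in the stretch in all 4 lists, at 12.2% and 6.03% of treated and 22.6% and 15.4% of untreated stretch peaks, against 22.1% and 15.6% of treated and 31.9% and 30.9% of untreated peaks in the rest. Within 5 kb the direction differed between lists: the share was 48.8% and 26.6% of treated and 64.5% and 41.0% of untreated stretch peaks in lists 1 and 2, against 34.3% and 26.6% of treated and 47.9% and 48.5% of untreated peaks in the rest. Within a list, stretch peaks were spaced at a median of 32.7 and 17.9 kb in treated lists 1 and 2 and 153 and 156 kb in untreated lists 1 and 2.

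Peak widths in the stretch and in the rest differed by less than the spread between lists. The median width in the stretch was 231 and 345 bp in treated lists 1 and 2 and 216 and 381 bp in untreated lists 1 and 2. In the rest it was 220 and 319 bp in treated lists 1 and 2 and 230 and 349 bp in untreated lists 1 and 2. Stretch peaks were wider in 3 lists and narrower in untreated list 1, a mean difference of 13.8 ± 20.5 bp (SD, n = 4) that was within the spread between lists (exact two-sided sign-flip permutation p = 0.375). Between the groups, the stretch medians averaged 288 ± 80.6 bp treated and 298.5 ± 117 bp untreated (SD, n = 2 each), a difference of -10.5 bp (exact two-sided permutation p = 1). Treated list 1 exceeded untreated list 1 by 15 bp within their pair. The medians follow the narrowest peak of each list, at 193 and 291 bp in treated lists 1 and 2 and 199 and 332 bp in untreated lists 1 and 2. Within 10% of that narrowest width lay 37.8% and 40.2% of the stretch peaks of treated lists 1 and 2 and 51.6% and 38.5% of those of untreated lists 1 and 2. The share in the rest was 43.9% and 50.8% in treated lists 1 and 2 and 45.4% and 53.6% in untreated lists 1 and 2. The widest stretch peaks were 490 and 903 bp in treated lists 1 and 2 and 426 and 771 bp in untreated lists 1 and 2. The rest of the chromosome reached 1506 to 1584 bp in these 4 lists. Those widest peaks of the rest all lay at the same site, at a distance of -33.6 Mb from the border.

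**Figure D5:**
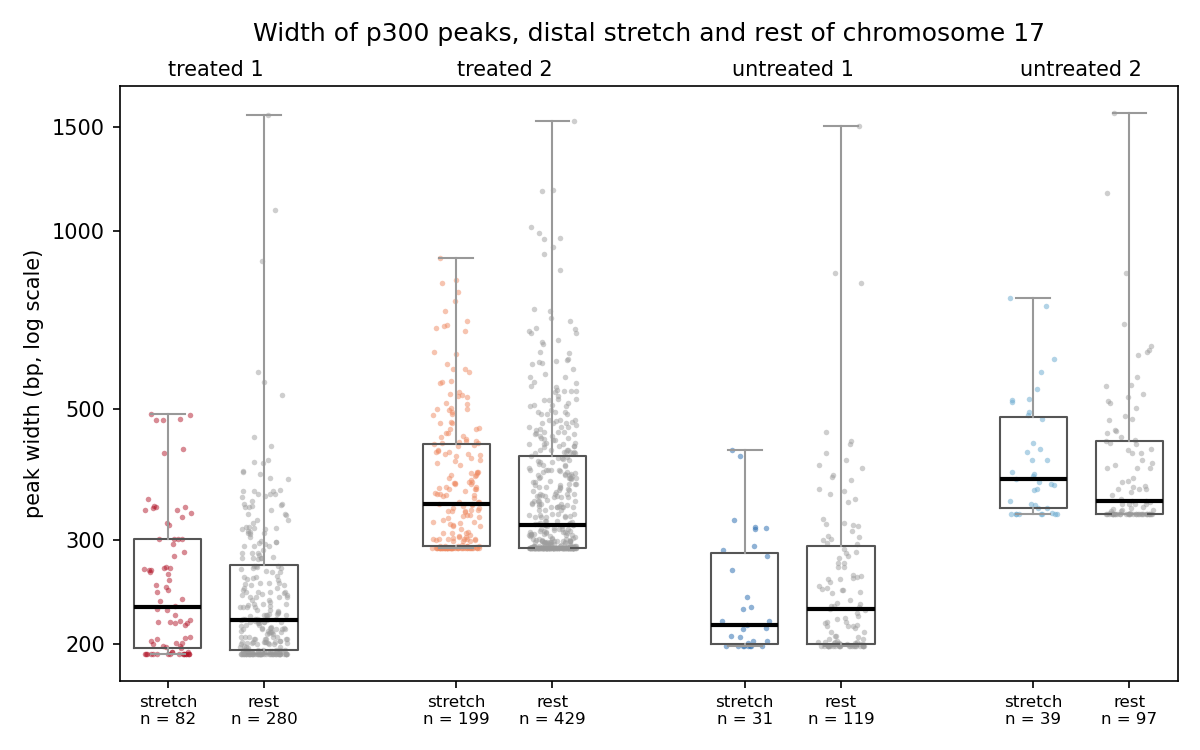
Peak width in bp (y axis, log scale) of every peak in the stretch (coloured) and in the rest of chromosome 17 (grey), by list; boxes span the quartiles, thick lines are medians and whiskers reach the lowest and highest value. In the stretch the medians are 231 and 216 bp in treated list 1 and untreated list 1, and 345 and 381 bp in treated list 2 and untreated list 2.

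In all, 9 comparisons were tested, and the lowest exact permutation p after Benjamini-Hochberg adjustment over them was 0.675. The smallest unadjusted p that any of the 9 designs allows is 0.1, so no threshold of 0.05 could be reached.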

How the data were processed

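Peaks of 5 p300 ChIP-seq libraries were analysed, 1 deposited list per library. MACS2 and hg19 are named in the submitters' processing notes, while an aligner, version, threshold or matched input is not given there. For each peak the authors deposited a start, an end and a score. The score's scale is unnamed, so it served only for percentiles within a list, with ties averaged. The lowest score was 3.04, 2.02 and 2.16 in treated lists 1, 2 and 3 and 3.04 and 2.02 in the untreated lists, so thresholds may differ. Coordinates are counted from 1.

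Members and tests were chosen with earlier results of these data known. Groups were compared with exact permutation tests over lists, and stretch with rest by exact sign-flip tests. The plan assumed 5 lists throughout, but treated list 3 has no stretch peak, so width, rank and sharing were tested on 4. Overlap of 1 bp merged peaks into regions. Regions named were those in 3 or more lists, in 2 treated or both untreated lists alone, and the highest-scoring and widest peak of each list; those shared by 1 treated and 1 untreated list were added after their values were seen. Bins named by rule were the 3 of the stretch with the most regions and the 1 with the fewest; other bins were named after their values were seen. Alternatives varied the border (74 or 76 Mb), score minimum, list length, overlap, peak width, merging, bin size, pairing and the lists used. Counting was tested on simulated data. Python 3.11.15, numpy 2.4.6, pandas 2.3.3 and matplotlib 3.10.9 were used.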

Additional observations from a re-analysis of the deposited data

Results flagged for a closer look

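The treated list had the larger share of its peaks in the stretch in 1 of the 2 pairs whose peak names carry one identifier, and the smaller share in the other. Treated list 1 minus untreated list 1 was 0.326 points (1.67% against 1.34%), and treated list 3 minus untreated list 2 was -1.91 points (0% against 1.91%). Each pair holds 1 list per group, so this difference between the pairs was not tested. Treated list 3 has 528 peaks in all, against 2039 in untreated list 2, and the part of this in the result was not tested.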

How the results depend on the processing

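Under the alternatives, 132 values held, 19 moved further and 10 changed sign. To hold meant the same sign or, for a count, a change within 1.5-fold. For the density ratio it meant a change smaller than the SD over lists. Lower rank and less sharing in the stretch than in the rest kept their sign in every alternative run, at -16.4 to -7.42 and -28.6 to -8.52 points. So did the treated minus untreated differences in rank (7.51 to 26.1 points) and sharing (3.76 to 45.8 points). A kept sign does not mean that the groups stayed apart. With a score minimum at the pooled median these differences were 8.32 and 3.76 points. No other split of the 4 lists gave a smaller absolute difference there. The range ends at -16.4, -28.6, 26.1 and 45.8 points came from equal numbers of top peaks, where 3 lists have stretch peaks. With the border at 74 Mb the overlap difference was -0.0694 points and 1 bin separated the groups. A score minimum at the pooled median left 4 regions in 2 or more lists, 1 in treated lists alone and 1 such bin. Equal numbers of top peaks gave a density ratio of 0.978, over the span of the peaks left, and a width difference from the rest of -25.0 bp. In this setting 1, 1 and 0 regions were in 2 or more lists, treated lists alone and untreated lists alone. Few stretch peaks remain there. Peaks set to 200 bp left 3 regions in treated lists alone. Group medians gave a log2 ratio of list share of 0.035.

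Leaving out 1 list moved regions in 2 or more lists to 3 (without treated list 1) at the lowest and 10 at the highest. Those in treated lists alone ran from 0 to 5, those in untreated lists alone from 1 to 36, and the bins from 0 to 4. The 0 for treated lists alone is fixed by the definition, since without treated list 1 or 2 a single treated list has stretch peaks. So are the 36 and 28 without an untreated list, which count any region of the remaining untreated list with no treated peak. The log2 ratio of list share ran from -0.97 to 0.16, the share of chromosome 17 from -13.3 to 2.50 points and the width by treatment from -93.0 to 72.0 bp. The positive shares came without treated list 3, and the positive widths without treated list 1 (46.5 bp) or untreated list 2. With the replicate number as a block the log2 ratio was 0.18 and the share of chromosome 17 differed by 2.50 points; the block leaves out treated list 3. Deviations from the group means correlated at 0.36 between same-numbered lists over 13 bins, but the labels do not say that numbers pair the libraries. Crossed numbers gave -0.36, which is fixed by the first value. With 2 lists per group, treated list 3 left out, the deviations of a group mirror each other. The 0.36 is thus a single value, and both pairs give it by construction. Pairing by identifier gave a width difference of 15.0 bp.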
